A study of Bos taurus with 4 samples.

Results

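The genes described here encode enzymes and enzyme complexes that move nucleosomes or modify histones, measured in bovine chromaffin cells after exposure to PACAP. They were chosen by name. A cDNA clone belonged to the set where the array annotation gave it a single mouse symbol beginning with Smarc, Hdac, Chd and a digit, Kdm, Kmt, Setd, Brd, Kat or Arid, or the symbol Crebbp, Ep300, Ezh1 or Ezh2. This gave 212 clones of 89 genes, out of 11834 genes with a clone of 1 symbol; the naming rule uses symbols only. The genes were grouped by the start of their symbols, with all Smarc, Chd and Arid genes taken as remodellers. A group can therefore hold genes of another activity, such as Arid4b and Setd3, described below. The groups held 28 remodellers (68 clones), 10 acetyltransferases (23 clones), 9 deacetylases (15 clones) and 19 methyltransferases (51 clones). A further 13 genes were demethylases (29 clones) and 7 bromodomain proteins (21 clones). The remaining 3 genes (5 clones) were katanins, microtubule-severing proteins that share only the letters Kat and are given apart. Ezh2 was not matched to a clone.

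Chromatin remodellers use ATP to slide, evict or exchange nucleosomes, and their subunits assemble into SWI/SNF, ISWI, CHD and related complexes. Acetyltransferases and bromodomain proteins write and read histone acetylation, deacetylases erase it, and methyltransferases and demethylases place and remove methyl groups on histone lysines. PACAP is a neuropeptide that acts on chromaffin cells, the hormone-secreting cells of the adrenal medulla, largely through cyclic AMP, and the acetyltransferases Crebbp and Ep300 are the classical coactivators of the cyclic AMP-responsive factor CREB.

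Each of 4 biological repeats compared chromaffin cells treated with PACAP (100 ng/ml, 6 h at 37 C) with control cells of the same repeat on 1 array of mouse cDNA clones. PACAP RNA was labelled with Cy5 and control RNA with Cy3 on every array, so a dye preference of a clone cannot be told apart from an effect of PACAP. The labels name chromaffin cells as the cell type although their tissue entry is brain, and they do not say whether the repeats came from separate animals. The p-values therefore measure the spread between these 4 arrays, which may be partly technical. Cattle RNA was bound to mouse clones, and a cDNA clone can also bind transcripts of close relatives of its gene. The value used throughout is log2(PACAP / control) after loess normalisation within the array, in which a value above 0 means more PACAP signal. In bulk RNA, fewer cells of a type and less RNA per cell cannot be told apart.

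Clones entered the test when 3 or more of the 4 arrays showed them over 2 background SD with either dye. This held for 211 of the 212 clones, the exception being 1 of 4 Kmt2c clones, and 210 had a value on all 4 arrays. PACAP signal was above background on all 4 arrays for 203 of 211 clones (96.2%). Control signal was so for 94 (44.5%, against 31.3% of all tested clones), and on 1 or 2 arrays for 68 (32.2%). Of all tested clones, 41.1% had control signal above background on 2 arrays or fewer. A ratio whose control signal is near background has an uncertain size. The set was somewhat brighter than the library, with a median log2 brightness of 8.37, against 7.86 over all 35110 tested clones. Over the library, control signal exceeded background on 80.9, 53.0, 46.0 and 98.3% of spots on repeats 1 to 4. Repeat 4 stood apart from the others: over the 211 clones its log2 ratios correlated with those of repeats 1, 2 and 3 at r = 0.06, -0.06 and 0.08, while repeats 1 to 3 correlated among themselves at 0.27 to 0.45 (a description over clones that share the arrays). Of the 10 chromaffin marker genes, 7 had a clone, and Chga, Chgb, Ddc, Penk and Th were above background in both channels on at least 3 arrays. The clones of Scg2 and Slc18a1 had control signal above background on 2 arrays and 1 array. Clones of Dbh, Pnmt and Slc18a2 were not matched.

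No chromatin gene passed the test adjusted over the whole array. The limma test with Benjamini-Hochberg adjustment called 0 of 211 clones, against a background of 0% of all 35110 clones, and its lowest adjusted p was 0.454 in the set and over the library. At an unadjusted p under 0.05, 11 clones were higher with PACAP (5.21%, background 3.92%) and 9 were lower (4.27%, background 6.46%), shares near those of the library. The values of single clones are therefore measurements that do not stand out once all clones are accounted for. In simulated ratios the same fit called 0 of 67 clones changed 2-fold. A clone changed by that much would thus be likely to go uncalled here. The counts of higher and lower clones changed when 1 array was left out, and so did the shares of the library. Without repeat 1, 8 clones were higher (3.79%, background 2.97%) and 2 lower (0.948%, background 5.05%). Without repeat 2, 7 were higher (3.32%, background 2.46%) and 4 lower (1.9%, background 3.64%). Without repeat 3, 5 were higher (2.37%, background 1.99%) and 4 lower (1.9%, background 3.23%). Without repeat 4, 10 were higher (4.74%, background 4.87%) and 13 lower (6.16%, background 9.79%).

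The set as a whole lay slightly above the library. Its median log2 ratio was 0.08, against -0.01 over all clones, and 121 of 211 clones (57.3%) averaged above 0, against a background of 48.6%. The medians of the set on the 4 arrays were -0.03, 0.04, 0.16 and 0.10, so that repeat 1 did not share the shift; without repeat 4 the median over clones was 0.09. Of the 210 clones with 4 values, 30 were higher with PACAP on every array (14.3%, background 10.1%) and 15 were lower on every array (7.14%, background 8.71%). With median centring in place of loess the median of the set was 0.25 and that of all clones -0.03, and 31 clones were higher at an unadjusted p under 0.05 (14.7%, background 7.68%). The gap narrowed under some other settings. Loess by print tip, run within each printed block of the array, gave medians of 0.06 for the set and -0.01 for all. With only the brightest clone of each gene the medians were 0.07 for the set and 0.03 for all. Leaving out spots under 60 pixels gave 0.10 and 0.05. The part of brightness and spot area in this shift was not tested. Clone means in the set ran from -2.21 to 1.14.

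**Figure D1:**
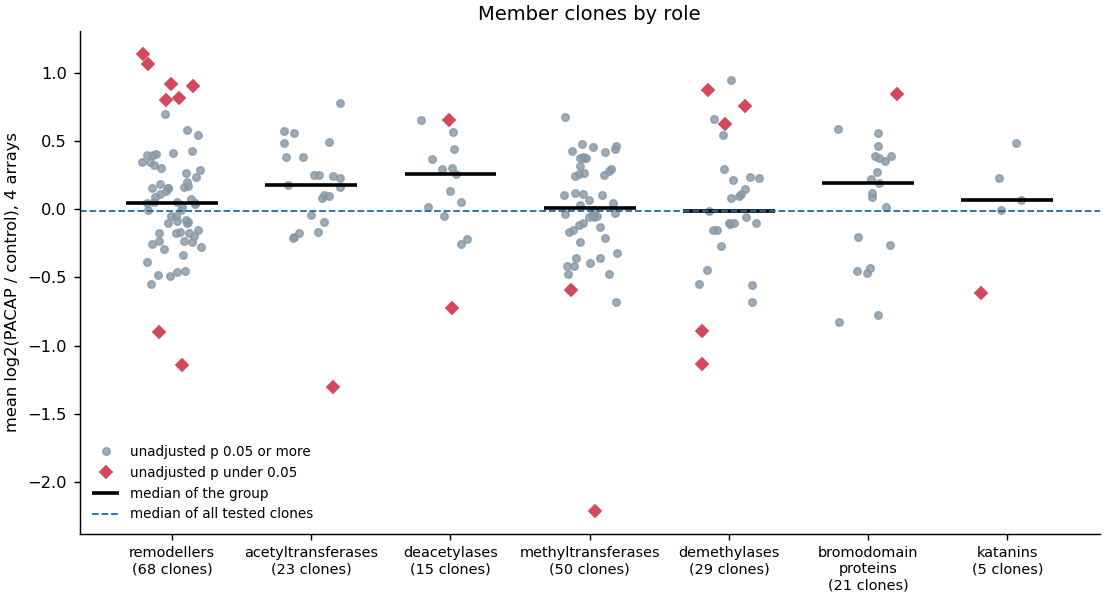
Mean log2(PACAP / control) over the 4 arrays for each of the 211 tested clones, by the role assigned from the start of its gene symbol. Red diamonds have a limma unadjusted p under 0.05, black bars are group medians and the dashed line is the median of all tested clones (-0.01). The group medians lie between -0.01 for demethylases and 0.26 for deacetylases, well inside the spread of the single clones.

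Among the remodellers, Smarca5 had the highest mean over its clones of the 38 genes with 3 or more tested clones. Smarca5 is SNF2H, the ATPase of the ISWI complexes that space nucleosomes. All 3 of its clones were higher with PACAP on all 4 arrays, which held for 1 of these 38 genes (2.63%), against a background of 14 of 2608 genes (0.537%); this is a description, since the gene was singled out with these values known. The mean over the 3 clones was 0.72, 1.21, 1.03 and 0.55 on repeats 1 to 4, a mean of 0.87 ± 0.30 on the log2 scale (SD, n = 4 arrays), or 1.83-fold. The 3 clones report on 1 gene and share the arrays, so they are not replicates of PACAP treatment.

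Clone AU021740 of Smarca5 had log2 ratios of 0.78, 0.43, 1.59 and 0.82 on repeats 1 to 4, with PACAP intensities of 9988, 4760, 2909 and 4491 and control intensities of 2389, 851.8, 377.8 and 5584. Its mean was 0.90 ± 0.49 (SD, n = 4; limma adjusted p = 0.454), with repeat 3 the highest. Clone AW549581 had 0.57, 1.18, 1.02 and 0.44, a mean of 0.80 ± 0.35 (SD, n = 4; limma adjusted p = 0.454). Here repeats 2 and 3 were the higher arrays and no value came near 0. Clone AW556184 had 0.80, 2.01, 0.48 and 0.38, a mean of 0.92 ± 0.75 (SD, n = 4; limma adjusted p = 0.454). Its value of 2.01 came from a control spot of intensity 246.3, only 2.21 background SD above background, and the other 3 arrays lay closer together. Each clone had control signal above background on all 4 arrays and a median spot area of 104 to 137 pixels. Without repeat 4 the 3 clones averaged 0.93, 0.92 and 1.09.

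The Smarca5 values depended on the version of the data. In the deposited log2 ratios, from which background was subtracted a second time, every Smarca5 value was positive, between 0.34 and 10.5, but so were most clones of repeats 1 to 3, whose array medians were 4.67, 5.53 and 4.25. After centring each array on its median those ratios averaged -0.60 for AU021740, -1.57 for AW549581 and 0.49 for AW556184. The second subtraction put the control intensity at the floor for 58.2, 83.1, 81.5 and 7.46% of library spots on repeats 1 to 4. Under all other settings the 3 clones stayed above 0, between 0.55 and 1.79.

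**Figure D2:**
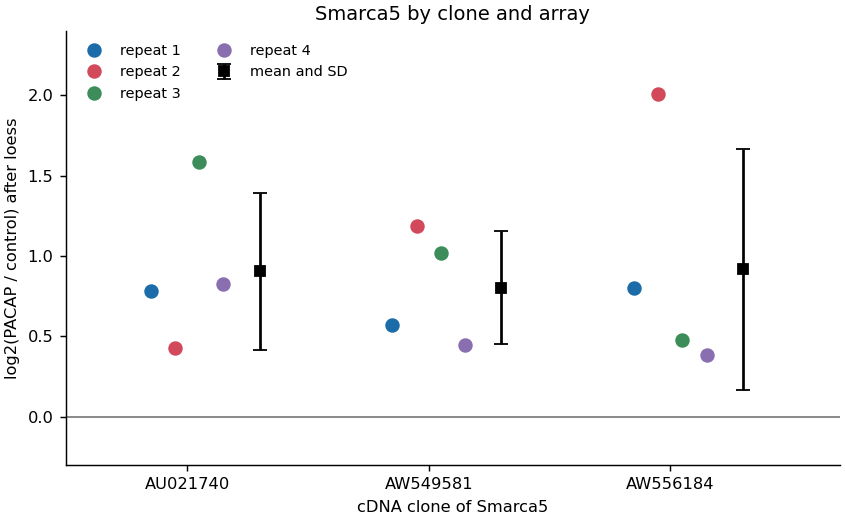
Log2(PACAP / control) after loess for the 3 Smarca5 clones, with a coloured point for each array and a black square with bars for the mean and SD over the 4 arrays. All 12 points lie above 0, from 0.38 to 2.01, and the array with the highest value differs between clones.

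Other members of the ISWI and SWI/SNF families gave smaller or mixed values. Smarca1, the second ISWI ATPase and the closest relative of Smarca5, had 1 clone at 0.43 ± 0.12 and another at 0.01 ± 1.80 (SD, n = 4 each). The first of these was above 0 on all 4 arrays and the second spread from -2.07 to 2.31. Smarcc1, a core scaffold subunit of SWI/SNF, had clone C79157 at 0.62, 0.29, 1.89 and 0.47 on repeats 1 to 4, a mean of 0.82 ± 0.73 (SD, n = 4; limma adjusted p = 0.459). Its other clone AW536780 was also above 0 on all 4 arrays, at 0.40 ± 0.32. For C79157 the control signal was above background on only 2 arrays and repeat 3 lay far above the rest.

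The SWI/SNF ATPases Smarca4 (2 clones, -0.005 and 0.05) and Smarca2 (4 clones, -0.34 to 0.15) stayed close to 0. The core subunit Smarcb1 had 3 clones from -0.48 to 0.13, of which BE982884 was below 0 on all 4 arrays at -0.48 ± 0.22 (SD, n = 4; limma adjusted p = 0.502). The remaining subunits Smarcc2, Smarcd1, Smarcd2 and Smarce1 each had 1 clone above and 1 below 0, all within -0.25 and 0.20. Smarcad1, a remodeller that acts in heterochromatin and DNA end resection, had 2 clones above 0 (0.16 and 0.35), and Smarcal1, an annealing helicase of stalled replication forks, had 2 clones at -0.17 and 0.04.

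The ARID proteins, DNA-binding subunits of several complexes, had 8 of 15 clones above 0 (background 48.6%). Arid4b, a subunit of the Sin3 deacetylase complex, had all 5 clones above 0, from 0.05 to 1.07. Its clone AI849387 had 0.91, 0.72, 2.44 and 0.19 on repeats 1 to 4, a mean of 1.07 ± 0.96 (SD, n = 4; limma adjusted p = 0.454), and its control signal was above background on 1 array. Clone AW047204 averaged 0.70 ± 1.00 (SD, n = 4; limma adjusted p = 0.52), or -0.16 in the centred deposited ratios, with repeats 2 and 3 at 1.55 and 1.57 and the others just below 0. One further Arid4b clone, at 0.05, is titled angiopoietin-like 2 in the scanner tables, which contradicts its symbol. For the SWI/SNF subunit Arid1a, clone AW545797 was below 0 on all 4 arrays at -0.39 ± 0.17 (SD, n = 4; limma adjusted p = 0.553), while its other clones averaged 0.08 and 0.41, and with median centring it averaged 0.14. Arid1b clones ran from -0.46 to 0.40, and the single clones of Arid3a, Arid4a and Arid5b averaged -0.55, -0.08 and -0.10.

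The CHD remodellers, ATPases most of which carry chromodomains, had 13 of 25 clones above 0 (background 48.6%). They contributed 1 clone to the higher (background 3.92%) and 2 to the lower ones (background 6.46%). Chd7, known for its role in neural crest development, had clone AI844880 at -0.03, 0.68, 3.09 and 0.80 on repeats 1 to 4, a mean of 1.14 ± 1.35 (SD, n = 4; limma adjusted p = 0.469). Most of that mean came from repeat 3, control signal was above background on 1 array, and the other 3 Chd7 clones averaged -0.46, -0.29 and 0.04. Chd2, a remodeller of active genes, had a single clone at -1.0, -2.02, -0.32 and -0.27, a mean of -0.90 ± 0.82 (SD, n = 4; limma adjusted p = 0.454), below 0 on every array.

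Chd8, which binds beta-catenin, had clone AU015341 at -2.55, -1.13, -1.51 and 0.63, a mean of -1.14 ± 1.32 (SD, n = 4; limma adjusted p = 0.467). Repeat 4 was on the other side of 0, the spot covered 42.0 pixels, and the other 4 Chd8 clones lay between -0.17 and 0.54. Chd3 and Chd4, the ATPases of the NuRD complex, ran from -0.28 to 0.34 and from -0.09 to 0.30 over 3 clones each. Chd9 had 3 clones above 0 (0.09 to 0.58) and Chd1 had 3 from -0.23 to 0.29. Single clones of Chd1l, Chd5 and Chd6 averaged -0.24, -0.49 and -0.18, of which the Chd5 clone was below 0 on every array.

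**Figure D3:**
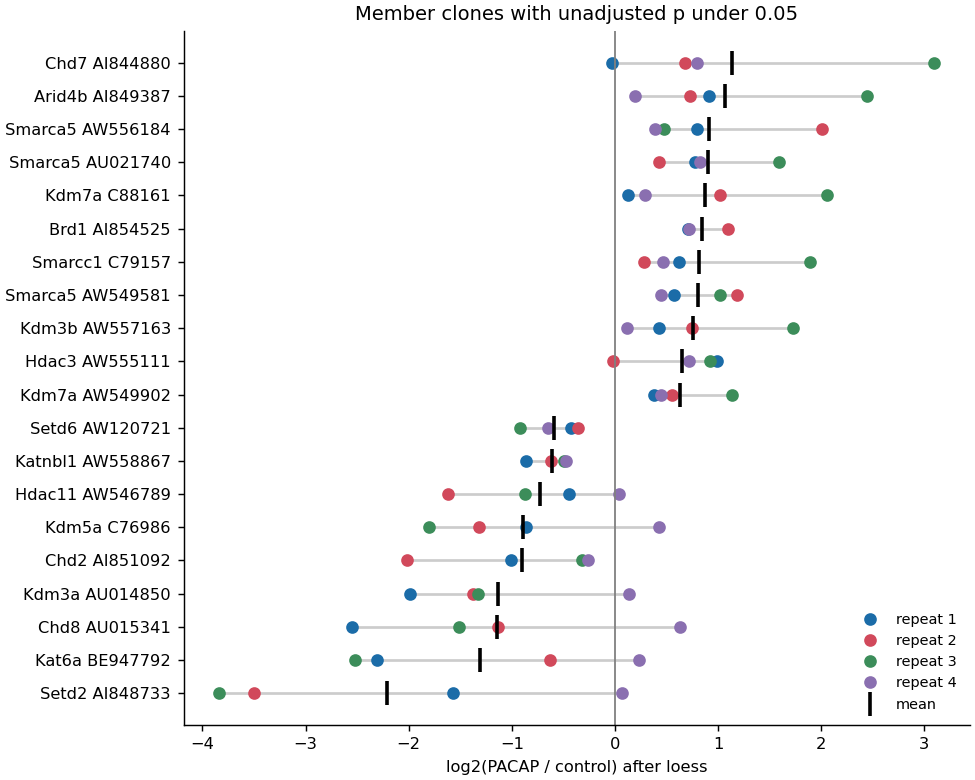
Log2(PACAP / control) after loess on each array for the 20 member clones with a limma unadjusted p under 0.05, ordered by mean (black tick). Among the 11 higher clones repeat 3 is the highest array for 7, and among the 9 lower clones repeat 4 lies above 0 for 6.

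Histone acetyltransferases had 16 of 23 clones above 0 (background 48.6%). At an unadjusted p under 0.05, 0 were higher (background 3.92%) and 1 lower (background 6.46%). Crebbp (CBP), the CREB coactivator, had 5 clones from -0.17 to 0.78. The highest, AW552828, had -0.38, 1.65, 1.52 and 0.32 on repeats 1 to 4, a mean of 0.78 ± 0.98 (SD, n = 4; limma adjusted p = 0.491) that became -0.014 in the centred deposited ratios, whereas AU019006, with control signal above background on all 4 arrays, averaged 0.25 ± 0.16 and was above 0 on each. The single Ep300 clone averaged 0.49 ± 0.57 (SD, n = 4; limma adjusted p = 0.538), above 0 on 3 of 4 arrays. Of the 6 clones of these coactivators, 0 had an unadjusted p under 0.05.

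In the MYST family of acetyltransferases, Kat6a (MOZ) had clone BE947792 at -2.30, -0.63, -2.52 and 0.23, a mean of -1.31 ± 1.33 (SD, n = 4; limma adjusted p = 0.454). Its spot covered 59.5 pixels, and the other Kat6a clones, on spots of ordinary size, averaged 0.23 and -0.10. Kat6b (MORF), its close relative, had 1 clone at 1.13, 0.50, 0.33 and 0.29, all above 0, with a mean of 0.56 ± 0.39 (SD, n = 4; limma adjusted p = 0.482), against -1.06 in the centred deposited ratios. Kat7 (HBO1) and Kat8 (MOF) had 2 clones each, all above 0 and at most 0.49, and the Kat5 (TIP60) clone averaged -0.05. Kat14, the acetyltransferase of the ATAC complex, had 3 clones between 0.38 and 0.57 and 1 at -0.21. The SAGA enzymes Kat2a (1 clone, -0.20) and Kat2b (3 clones, -0.17 to 0.24) were near 0, and 1 Kat2b clone, at 0.18, is titled as a CMP-sialic acid synthetase.

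The 3 katanin genes gave 5 clones from -0.61 to 0.49. Katnbl1, a regulator of katanin, was below 0 on every array at -0.87, -0.62, -0.50 and -0.48, a mean of -0.61 ± 0.18 (SD, n = 4; limma adjusted p = 0.455). It is 1 of the 9 lower clones, so that 8 of the 206 clones left without the katanins were lower (3.88%, background 6.46%).

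Histone deacetylases had the highest group median of clone means, 0.26, with 11 of 15 clones above 0 (background 48.6%). Their medians on repeats 1 to 4 were lower, at 0.04, -0.02, 0.16 and 0.16. Hdac3, the catalytic subunit of the NCoR and SMRT corepressor complexes, had 1 clone at 0.99, -0.02, 0.92 and 0.72, a mean of 0.65 ± 0.46 (SD, n = 4; limma adjusted p = 0.469). It was near 0 on repeat 2, its control signal was above background on 1 array, and the centred deposited ratios averaged -0.15. Hdac4, a class IIa enzyme that shuttles out of the nucleus when phosphorylated, had clone AI837378 above 0 on all 4 arrays at 0.57 ± 0.37 (SD, n = 4; limma adjusted p = 0.48), while its other clone averaged -0.22. Hdac11 had clone AW546789 at -0.45, -1.62, -0.87 and 0.04, a mean of -0.72 ± 0.70 (SD, n = 4; limma adjusted p = 0.477), and a second clone at 0.44; AW546789 averaged 0.56 in the centred deposited ratios. Hdac1 and Hdac2, the paired catalytic subunits of Sin3 and NuRD, had 6 clones, all with means above 0, from 0.01 to 0.37. The class IIa enzymes Hdac5 and Hdac9 averaged -0.05 and 0.30, the tubulin deacetylase Hdac6 averaged 0.65 ± 1.16 with repeat 3 at 2.24, and the Hdac10 clone, titled as the transcription factor STAT6, averaged -0.26.

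The methyltransferase group (Kmt, Setd and Ezh symbols) was evenly split, with 25 of 50 clones above 0 (background 48.6%). It had 0 higher (background 3.92%) and 2 lower clones (background 6.46%) at an unadjusted p under 0.05. The 50 include 4 clones of Setd3, which acts on actin, all 4 above 0. Setd2, which marks the bodies of transcribed genes, had the lowest clone of the set. Clone AI848733 had -1.57, -3.50, -3.84 and 0.07 on repeats 1 to 4, a mean of -2.21 ± 1.82 (SD, n = 4; limma adjusted p = 0.454). Its spot covered 20.5 pixels and repeat 4 was near 0. The other Setd2 clone, on a spot of 143.0 pixels, averaged -0.03 ± 0.25, so the low value was not shared within the gene. In the centred deposited ratios AI848733 averaged -6.53 (limma adjusted p = 0.00142) and was 1 of 2 member clones past the threshold (0.948%, background 1.04%). Setd6, which methylates the NF-kappaB subunit RelA among other proteins, had clone AW120721 below 0 on every array, at -0.43, -0.36, -0.92 and -0.65, a mean of -0.59 ± 0.25 (SD, n = 4; limma adjusted p = 0.469). A second Setd6 clone averaged -0.41 and the third 0.46.

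Setd7, a lysine monomethyltransferase with histone and other substrates, had all 5 clones below 0, from -0.47 to -0.05. The most even of them, AW493143, had -0.64, -0.43, -0.33 and -0.50, a mean of -0.47 ± 0.13 (SD, n = 4; limma adjusted p = 0.498), and with median centring in place of loess it averaged 0.25. The MLL-type genes Kmt2a to Kmt2e averaged above 0 for 7 of 10 tested clones (background 48.6%). Kmt2e had clone AU040711 at 0.67 ± 0.73 (SD, n = 4; limma adjusted p = 0.488), 2 more at 0.44 and 0.46 and 1 at -0.06, Kmt2c had 3 clones from 0.03 to 0.39, and the Kmt2a clone averaged 0.48 ± 0.44 (SD, n = 4; limma adjusted p = 0.523). Kmt2b and Kmt2d averaged -0.03 and -0.06.

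The Kmt5 enzymes, which methylate histone H4, ran from -0.48 to 0.42 over 10 clones, and for Kmt5a clone AU020331, the highest, the mean was 0.42 ± 0.36 (SD, n = 4; limma adjusted p = 0.552). Kmt5c was the only one of the 3 with every clone above 0 (0.24 and 0.37). Ezh1, a catalytic subunit of Polycomb complex PRC2, had 3 clones at 0.43, 0.25 and -0.10, of limma adjusted p = 0.608 or more (n = 4 each). The highest, BE948949, had -0.01, 1.26, 0.74 and -0.30 on repeats 1 to 4, so that it lay above 0 on 2 arrays only. Its mean was 0.15 without repeat 2, 0.10 with median centring and 0.11 with loess by print tip. Setdb1, which silences retroelements with Trim28, had 4 clones from -0.68 to 0.26, Setd5 had 4 from -0.39 to 0.37, and Setd3, an actin histidine methyltransferase, had 4 from 0.10 to 0.37. The single clones of Setd1a, Setd4 and Setdb2 averaged -0.01, -0.17 and 0.04, and those of Setd1b 0.25 and -0.05.

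Of the 29 demethylase clones, 14 averaged above 0 (background 48.6%). At an unadjusted p under 0.05, 3 were higher (background 3.92%) and 2 lower (background 6.46%). Kdm7a, which removes repressive methyl marks from histone H3, had 2 clones above 0 on every array. C88161 had 0.13, 1.01, 2.06 and 0.29, a mean of 0.87 ± 0.88 (SD, n = 4; limma adjusted p = 0.467), and AW549902 had 0.38, 0.55, 1.13 and 0.45, a mean of 0.63 ± 0.35 (SD, n = 4; limma adjusted p = 0.467). Both were highest on repeat 3 and had control signal above background on 2 arrays. The other Kdm7a clones averaged 0.22 and, on a spot of 66.5 pixels, -0.68, so the gene as a whole had no single direction.

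Kdm3b, a demethylase of histone H3 lysine 9, had 1 clone at 0.43, 0.75, 1.73 and 0.12, a mean of 0.75 ± 0.70 (SD, n = 4; limma adjusted p = 0.469), above 0 on every array. Control signal for Kdm3b was above background on 2 arrays, and loess by print tip gave a mean of 0.34. Its relative Kdm3a, a target of the hypoxia response, had clone AU014850 at -1.98, -1.38, -1.33 and 0.14, a mean of -1.14 ± 0.90 (SD, n = 4; limma adjusted p = 0.454). That spot covered 49.5 pixels, and the other Kdm3a clones averaged -0.10 and -0.01. In the centred deposited ratios AU014850 was the other member past the threshold, at -4.70 (limma adjusted p = 0.0405). Kdm5a, a demethylase of histone H3 at promoters, had clone C76986 at -0.86, -1.32, -1.81 and 0.43, a mean of -0.89 ± 0.96 (SD, n = 4; limma adjusted p = 0.471), on a spot of 41.0 pixels, and 4 others from -0.15 to 0.29. Kdm5b, of the same subfamily, had all 3 clones above 0, from 0.11 to 0.66. Kdm2b had clones at 0.94 and -0.55. The first had control signal above background on 2 arrays and repeat 3 at 2.73, and the second a spot of 52.0 pixels. Kdm4b had clones at -0.10 and 0.08, and Kdm6a had 4 from -0.27 to 0.15. Kdm1a (LSD1), Kdm2a, Kdm4d, Kdm5c and Kdm6b had 1 clone each, at 0.23, -0.45, -0.55, -0.15 and -0.11. The Kdm2a spot covered 46.0 pixels.

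Bromodomain proteins, readers of acetylated histones, had 14 of 21 clones above 0 (background 48.6%). Brd1, a scaffold of MYST acetyltransferase complexes, had clone AI854525 at 0.71, 1.10 and 0.72 on repeats 1, 2 and 4, a mean of 0.84 ± 0.22 (SD, n = 3; limma adjusted p = 0.454). It had no spot on repeat 3, and the other Brd1 clones averaged 0.59 and, on a spot of 34.0 pixels, -0.21. The BET proteins Brd2 and Brd3, which couple acetylation to transcription elongation, had all 8 of their clones above 0. Brd3 ran from 0.12 to 0.56 over 5 clones, each with control signal above background on all 4 arrays, and its clone AU042036 had 0.10, 0.55, 0.58 and 0.99, a mean of 0.56 ± 0.36 (SD, n = 4; limma adjusted p = 0.481), which turned to -2.13 in the centred deposited ratios. Brd2 ran from 0.09 to 0.35 over 3 clones. The testis-type BET protein Brdt had 4 clones from -0.83 to 0.27, the lowest being BF456375 at -0.83 ± 1.14 (SD, n = 4; limma adjusted p = 0.504). Brd7 and Brd9, subunits of SWI/SNF variants, had 1 clone each at 0.46 and -0.47, and Brd8, of the TIP60 complex, had 4 from -0.78 to 0.39.

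Clones of 1 gene often disagreed. Of the 58 genes with at least 2 tested clones, 17 had every clone above 0 (29.3%, background 23.8% of 5931 genes), 3 had every clone below 0 (5.17%, background 17.4%) and 38 had clones on both sides. The 3 were Kdm3a, Setd2 and Setd7. For the 2 brightest clones of each gene, the mean log2 ratios correlated across genes at r = 0.12 (58 genes), against 0.15 over all 5931 genes, and had the same sign in 56.9% of genes, against 55.8%. Their median absolute difference was 0.25, against 0.34 over all genes. A single clone of this array thus says little about a second clone of its gene, in this set as in the library. For 31 of the 89 genes only 1 clone was tested, and there such a comparison could not be made.

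**Figure D4:**
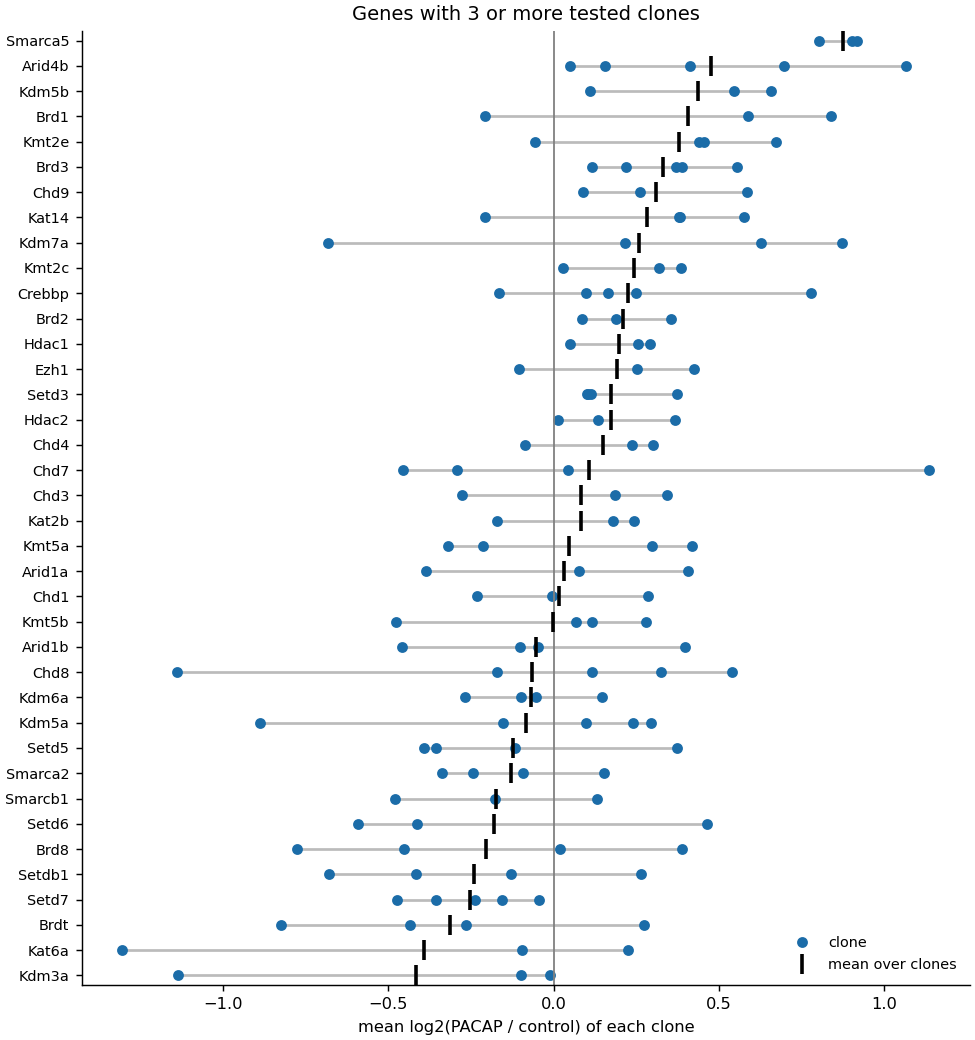
Mean log2(PACAP / control) of every clone for the 38 genes with 3 or more tested clones, ordered by the mean over clones (black tick). Smarca5 lies at the top with its clones between 0.80 and 0.92, while for most genes the clones fall on both sides of 0.

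The higher and lower clones differed in what was measured beside the ratio. Of the 11 higher clones, 7 had control signal above background on only 1 or 2 arrays and 0 had a median spot area under 60 pixels, and 9 were above 0 on every array measured. Of the 9 lower clones, 2 had such weak control signal, 5 had spots under 60 pixels, and only Chd2, Katnbl1 and Setd6 were below 0 on every array. All 10 member clones with spots under 60 pixels averaged below 0, with a median of -0.72, while 80 of the 201 on larger spots did (39.8%), with a median of 0.10. Over the library 93.6% of the 2889 clones on such small spots averaged below 0. With small spots left out, 4 member clones were lower at an unadjusted p under 0.05 (2.05%, background 4.71%). The part of spot area in these ratios was not tested.

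**Figure D5:**
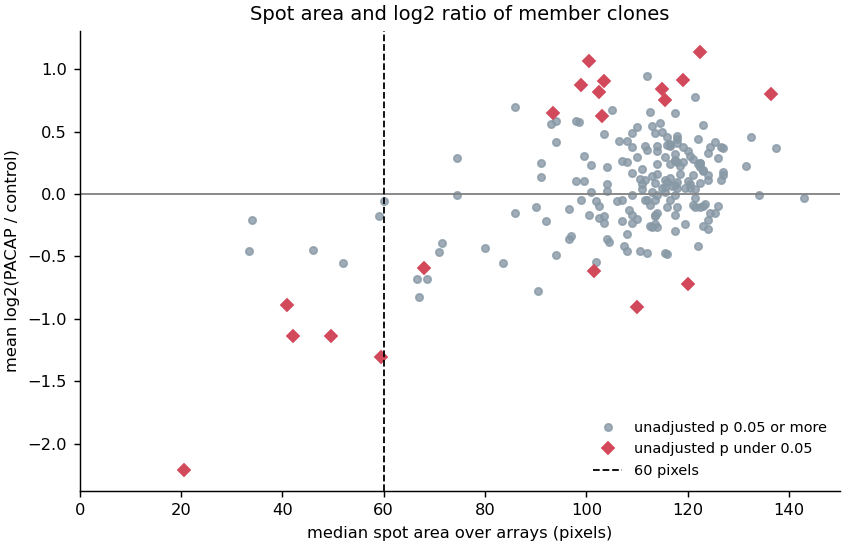
Mean log2(PACAP / control) of the 211 tested member clones against the median area of their spots in pixels. Red diamonds have a limma unadjusted p under 0.05, and all 10 clones to the left of the dashed line at 60 pixels lie below 0, from -2.21 to -0.17.

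The partners of Smarca5 in ISWI complexes were measured by clones of a wider list of remodelling subunits. Baz1a (ACF1), its partner in the ACF and CHRAC complexes, had clone AU018029 at 0.88, 1.33, 2.08 and 0.39, a mean of 1.17 ± 0.72 (SD, n = 4; limma adjusted p = 0.454), with control signal above background on 2 arrays. Its other clones averaged 0.07 and, on a spot of 31.0 pixels, -1.19. Rsf1, its partner in the RSF complex, had 3 clones at 0.75, 0.53 and 0.33 and another at -2.06 on a spot of 32.0 pixels (n = 3). Bptf, the large subunit of NURF, had 5 of 7 clones above 0, from -0.30 to 0.77. Baz1b, Baz2a, Cecr2 and Pole3 had 2 clones each, between -0.51 and 0.41. The lowest Bptf clone, at -0.30, was on a spot of 56.0 pixels. The partner clones thus lay on both sides of 0, and the lowest of Baz1a, Rsf1 and Bptf were on spots under 60 pixels. The 2 Cecr2 clones were also below 0, on spots of 96.5 and 91.5 pixels. The part of spot area in these values was not tested.

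That list held 39 genes of SWI/SNF, ISWI, INO80 and NuRD complexes outside the set, of which 36 were measured by 88 clones with a median of 0.13. At an unadjusted p under 0.05, 5 of them were higher (5.68%, background 3.92%) and 3 lower (3.41%, background 6.46%). Beside Baz1a its smallest p belonged to Atrx, a remodeller that deposits histone H3.3, for which clone AU044311 had 0.90, 0.76, 1.83 and 0.56, a mean of 1.01 ± 0.56 (SD, n = 4; limma adjusted p = 0.454). All 5 Atrx clones averaged above 0, from 0.32 to 1.01. Among 13 measured sirtuins and corepressors (34 clones, median -0.07), 0 clones were higher and 3 lower (8.82%, background 6.46%). Sirt1, the NAD-dependent deacetylase, had clone AW548525 below 0 on every array at -1.18 ± 1.05 (SD, n = 4; limma adjusted p = 0.454), and its 3 other clones averaged between -0.43 and -0.04. Trim28, the corepressor that recruits Setdb1, had clone AU020044 below 0 on every array at -0.89 ± 0.76 (SD, n = 4; limma adjusted p = 0.454), and all 4 of its clones averaged below 0.

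Among 21 other acetyltransferase and CREB coactivator genes (47 clones, median 0.01), 5 clones were higher (10.6%, background 3.92%) and 2 lower (4.26%, background 6.46%) at that level. Morf4l2, a relative of the TIP60 subunit MRG15, had all 3 clones above 0, from 0.53 to 0.91, although the title of the highest, AW539363, reads nucleosome binding protein 1 and its centred deposited ratios averaged -1.58. Tada2a, an adaptor of the ATAC complex, had clone AW537212 at -1.43 ± 1.20 (SD, n = 4; limma adjusted p = 0.454), on a spot of 59.5 pixels, and its only other clone had the opposite sign. Among 39 other methylation and Polycomb genes (87 clones, median -0.01), 3 were higher (3.45%, background 3.92%) and 6 lower (6.9%, background 6.46%). The methyltransferase Nsd1 had a clone at -1.81 ± 1.14 (SD, n = 3; limma adjusted p = 0.454), with 1 of its 2 other clones on the same side of 0. The MLL complex subunit Dpy30 had its single clone at 0.86 ± 0.37 (SD, n = 4; limma adjusted p = 0.454). Among 28 histone chaperone, HMG and DNA methylation genes (70 clones, median 0.16), 4 were higher (5.71%, background 3.92%) and 3 lower (4.29%, background 6.46%). The DNA methyltransferase Dnmt3a had a clone at -1.0 ± 0.40 (SD, n = 4; limma adjusted p = 0.454) and the nucleosome-binding protein Hmgn2 one at -1.56 ± 1.29 (SD, n = 4; limma adjusted p = 0.454), on spots of 54.0 and 47.0 pixels. Of the other clones, 3 of 5 for Dnmt3a and 3 of 3 for Hmgn2 also averaged below 0. In each of the 5 lists 0 clones passed the adjusted test.

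Markers of other cells in an adrenal culture did not pass it either. Clone means ran from -0.80 to 0.39 for adrenal cortex (6 clones), from -0.77 to 0.47 for fibroblasts (15 clones), from -0.21 to 0.55 for endothelium (3 clones), from 0.03 to 0.90 for leukocytes (5 clones), and were 0.09 and 0.23 for the glial markers S100b and Sox10 and -0.46 for the haemoglobin gene Hbb-b1, whose clone is titled myosin Vb. All 5 leukocyte clones, of 4 genes, thus lay above 0, with a median of 0.33, above the 0.08 of the chromatin genes. Over the library 48.6% of clones did so. The leukocyte medians on repeats 1 to 4 were -0.04, 1.13, 0.14 and -0.17, so that repeat 2 stood far above the rest. The highest clone, of Ptprc at 0.90, had values on 3 arrays and control signal above background on 1. Chromaffin markers (10 clones of 7 genes) ran from -0.69 to 1.84. At an unadjusted p under 0.05, 3 were higher (30%, background 3.92%) and 1 lower (10%, background 6.46%), and 0 passed the adjusted test. The highest of them, of Scg2, had control signal above background on 2 arrays and is titled patched homolog. The part of other cell types in the chromatin values was not tested.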

How the data were processed

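Gene expression was measured in 4 samples, each 1 array of mouse cDNA clones with PACAP RNA in Cy5 and control RNA in Cy3. The deposited scanner tables give intensity, local background and its SD per spot in linear units, per the file headers. The values show that local background was subtracted from the deposited mean intensity, which has a floor near 1. The deposited ratio is that of the Cy5 and Cy3 means, scaled by a calibration factor for the array. The authors' log2 ratios are the values after a second subtraction, not centred. No source used here names the image analysis program.

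A floor of 1 was set, and the log2 ratio of Cy5 to Cy3 went through global loess (span 0.3) in limma 3.58.1 under R 4.3.3, with weight 0 for spots outside the library. The design assumed uncorrected intensities; since they were already corrected, normexp with offset 50 became an alternative. Symbols came from the platform annotation, joined by plate position. The join lay within 0.1 log2 of the deposited ratio on all 4 arrays for 206 of 212 member clones. Spots of 1 clone were averaged, and all clones of a gene were kept. Mean log2 ratios were tested against 0 by a 2-sided limma test (lmFit with an intercept, then eBayes). Benjamini-Hochberg adjustment ran over 35110 clones and a threshold of 0.05. Each array is a ratio within 1 repeat, and the number of arrays limits the precision. The loess and fit were tried on simulated ratios with the spread of the real clones. At an adjusted p under 0.05 they called 0 of 67 clones changed 2-fold. Of those changed 4-fold they called 17 of 67, and of those changed 8-fold 36 of 66. Tables were made with Python 3.11.15 and pandas 2.3.3.

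The genes, the lists and the tests were chosen with earlier results of these data known. The text names every Smarca5 clone, up to 3 clones of smallest p in each family with every clone of unadjusted p under 0.05, the other genes by range, and up to 2 clones of each wider list. Partner genes of Smarca5 and further clones of named genes were added after their values were seen. Alternatives were normexp, loess by print tip, median centring, arrays scaled to a common spread, 16 added to both channels, the deposited log2 ratios centred on each array's median, no filter, a filter on both channels, spots of 60 pixels or more, trend and robust moderation, 1 clone a gene, and each repeat left out.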

Additional observations from a re-analysis of the deposited data

How the results depend on the processing

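No clone passed the adjusted test among all clones under the main setting or any alternative except the deposited log2 ratios, which called 364, 2 of them members: Setd2 AI848733 at -6.53 (limma adjusted p = 0.00142) and Kdm3a AU014850 at -4.70 (limma adjusted p = 0.0405). The 11 higher member clones at an unadjusted p under 0.05 became 31 with median centring (14.7%, against 7.68% of all clones), 3 with the deposited ratios (1.42%, 1.24%), 6 with both channels required above background (4.2%, 3.74%), 7 with trend and robust moderation (3.32%, 2.59%), 6 with 1 clone a gene (6.74%, 5.46%), and 5 to 10 with 1 repeat left out (all clones 1.99% to 4.87%). The 9 lower ones became 22 with the deposited ratios (10.4%, against 11.9% of all clones), 4 without spots under 60 pixels (2.05%, 4.71%), 0 with trend and robust moderation (3 of 35110 clones), 4 with 1 clone a gene (4.49%, 5.21%), and 2 to 13 with 1 repeat left out (all clones 3.23% to 9.79%). The tests with both channels, larger spots or 1 clone a gene were made on 143, 195 and 89 member clones. The median of the set was 0.25 with median centring (all clones -0.03) and 0.08 to 0.11 with 1 repeat left out. It was 0.07 with 1 clone a gene (all clones 0.03) and 0.10 without spots under 60 pixels (all clones 0.05). With the deposited ratios the sign turned for Smarca5 AU021740 (-0.60) and AW549581 (-1.57), Hdac3 (-0.15), Hdac11 AW546789 (0.56), Brd3 AU042036 (-2.13), Kat6b (-1.06), Crebbp AW552828 (-0.014), Arid4b AW047204 (-0.16) and Morf4l2 AW539363 (-1.58), and with median centring for Setd7 AW493143 (0.25) and Arid1a AW545797 (0.14). The cause of these changes was not tested. Each array is the ratio of PACAP to control within its repeat, so the main test already compared them in pairs. No separate paired analysis was made. Control signal near background, above it on all 4 arrays for 94 of 211 clones (44.5%, against 31.3% of all clones), limits the size of most ratios.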
